A study of Mus musculus with 2 samples.

Results

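miR-204 and miR-211 are a pair of related microRNAs best known from the eye, and the values below are those of their 4 mature products, the 5p and 3p arms of each hairpin, in the retina of newborn mice. The 4 members were taken by name from the deposited tables, in which 1358 mature miRNAs are listed. The rule used no measured value, but the choice was made with earlier results of these data known. The tissue was the whole retina of CD-1 mice (outbred and wild type) at postnatal day 0, in 1 group of 2 small RNA libraries called replicate 1 and replicate 2. Whether they stem from different animals is not stated, so their spread may be technical. The group had no treatment and no genetic change, so there is no condition to compare, and the members were compared with each other, with the rest of the table and between the libraries.

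A miRNA hairpin is cut into a short duplex, and the strand loaded into an Argonaute protein guides it to messenger RNAs through bases 2 to 8 from the 5′ end, the seed. The other strand is usually degraded, and reads of both arms of a hairpin show how unequal that choice is. miR-204 is abundant in the retinal pigment epithelium, lens and ciliary body, and in medaka fish it is required for development of the lens and retina, with the transcription factor Meis2 among its targets. miR-211 is known from pigment cells, where it is transcribed with its host gene under the pigment cell transcription factor Mitf.

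The mature sequences are shown because the seed decides which members can share targets and because a single base separates the 5p arms. They are given 5′ to 3′ with the seed in capitals, from RefSeq on GRCm38.p6, where all 4 members were found.
miR-204-5p: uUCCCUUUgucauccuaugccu
miR-211-5p: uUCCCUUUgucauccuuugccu
miR-204-3p: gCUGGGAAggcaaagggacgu
miR-211-3p: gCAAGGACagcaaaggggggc
The 5p arms have the same seed and are identical at 21 of 22 positions, differing by A17U (miR-204-5p base, position counted from 1 at the 5′ end, miR-211-5p base). The 3p arms are identical at 14 of 21 positions and have different seeds. The seed UCCCUUU was shared by 1 further miRNA among the 1152 of 1358 listed miRNAs with a RefSeq sequence. This was miR-7670-3p, with 1 count in replicate 1 and 0 in replicate 2, which allows up to 0.37 CPM there. Neither 3p seed was shared with another of these miRNAs.

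Each member comes from a single hairpin within an intron of a channel gene, and the hairpins are shown with both mature arms in capitals because the bases beside the arms matter for the reads described further on.
Mir204: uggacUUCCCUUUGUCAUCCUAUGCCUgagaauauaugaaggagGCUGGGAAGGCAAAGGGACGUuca
Mir211: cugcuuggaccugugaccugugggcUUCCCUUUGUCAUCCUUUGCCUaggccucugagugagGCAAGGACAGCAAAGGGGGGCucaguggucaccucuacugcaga
On GRCm38.p6 Mir204 lies on the plus strand at chr19:22750605-22750672 and Mir211 on the plus strand at chr7:64205806-64205911. In the GENCODE annotation of the same build, Mir204 is inside Trpm3, a cation channel gene, between its exons in 18 of 24 annotated transcripts. Mir211 is inside Trpm1, which encodes the melastatin channel of melanocytes and of retinal ON bipolar cells, between its exons in 12 of 23 transcripts. No annotated exon of either host overlaps its hairpin, and both hosts are on the strand of their hairpin. The first base after the 5p arm is G in Mir204 and A in Mir211. In a fold computed from the sequence, 17 of the 22 bases of the 5p arm pair with the 3p arm in both hairpins.

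In the newborn retina nearly all reads of the pair were miR-204, and miR-211 was low. The order was miR-204-5p, miR-204-3p, miR-211-5p and miR-211-3p in both libraries. Levels are in CPM, counts scaled to a common library size by the sum of the count table, with an exact binomial 95% interval that covers counting error only. The table totals were 8337902 in replicate 1 and 8118208 in replicate 2.

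miR-204-5p, the strand to which the known eye functions are assigned, was at 3784 CPM in replicate 1 (interval 3742 to 3825) and 2994 CPM in replicate 2 (2957 to 3032). Its counts were 31546.5 and 24309. The mean of 3389 ± 558 CPM (SD, n = 2) put it at rank 33 of 1358, with 891 of the 924 miRNAs detected in both libraries below it. Because the retina was sampled in bulk, fewer cells of a type and less RNA per cell cannot be told apart.

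miR-204-3p, the opposite strand, was at 358 CPM in replicate 1 (345 to 371) and 243 CPM in replicate 2 (233 to 254), from 2981 and 1976 counts. Its mean of 300.5 ± 80.7 CPM gave rank 120. A 3p arm with this level stands above most miRNAs in the table, since the median over the 924 detected in both libraries was 3.65 CPM.

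miR-211-5p had 49.5 counts in replicate 1 and 43 in replicate 2, or 5.94 CPM (4.45 to 7.91) and 5.30 CPM (3.83 to 7.13). Its mean of 5.62 ± 0.453 CPM gave rank 411, near the middle of the detected miRNAs (513 of 924 lower). miR-211-3p had 1 count in each library, below the 3 counts that a sample with none could hide, so its level of 0.122 CPM is a detection and not a measurement. Of all reads of the 4 members, miR-204-5p held 91.2% and 92.3% in replicates 1 and 2, miR-204-3p 8.62% and 7.51%, and miR-211-5p 0.143% and 0.163%.

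**Figure D1:**
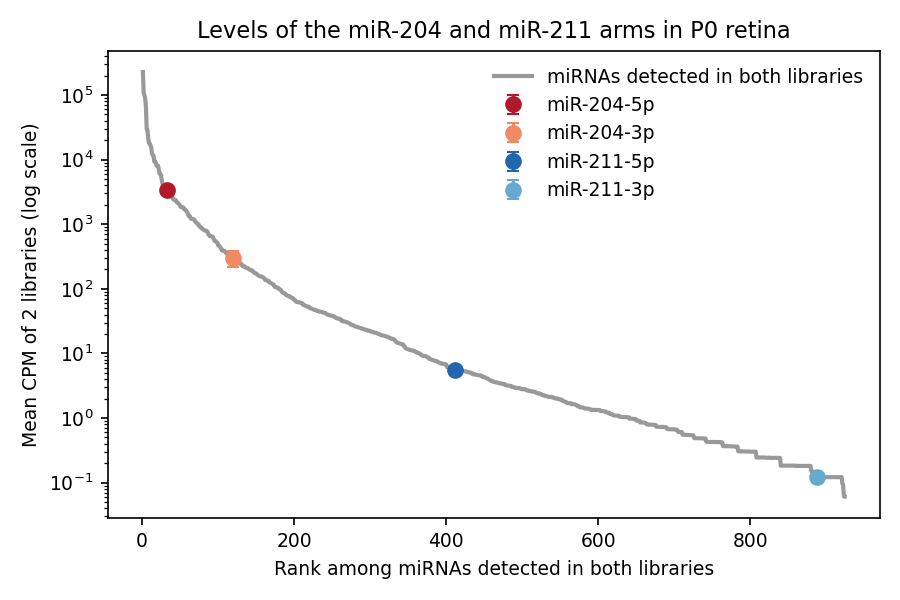
Mean CPM over the 2 libraries (log axis) against rank among the 924 miRNAs detected in both, as a grey line, with the 4 members as coloured points and SD as bars where larger than the point. miR-204-5p (3389 CPM) and miR-204-3p (300.5 CPM) sit on the steep upper part of the line, miR-211-5p (5.62 CPM) near its middle and miR-211-3p (0.122 CPM) at its lower end.

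**Figure D2:**
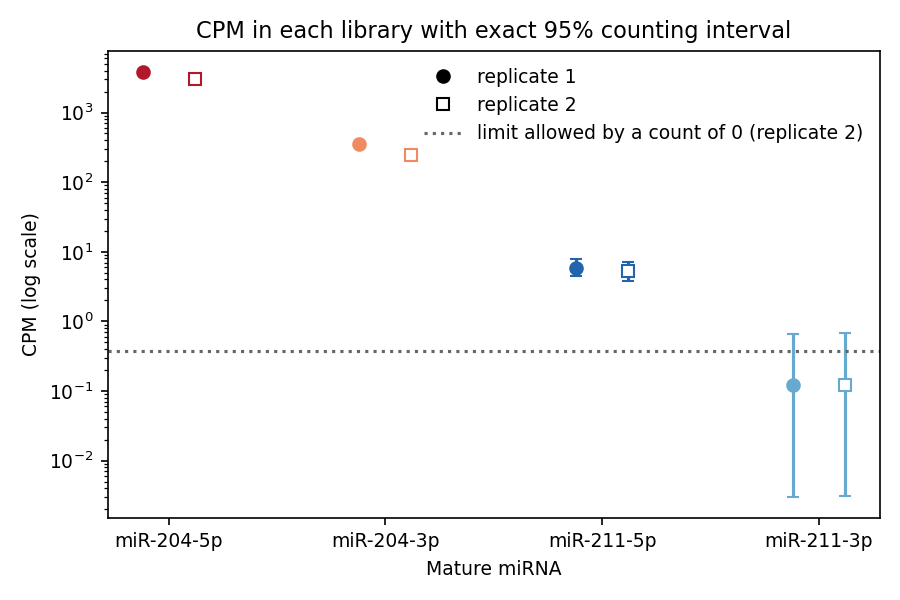
CPM of each member (log axis) in replicate 1 (filled circles) and replicate 2 (open squares), with exact 95% counting intervals. The intervals of the libraries are apart for miR-204-5p and miR-204-3p, overlap for miR-211-5p, and for miR-211-3p span the dotted line of 0.37 CPM, the limit that a count of 0 allows in replicate 2.

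The position of the miR-204 arms among other miRNAs was less certain than their counts. The miRNAs just above miR-204-5p in mean CPM were miR-30e-3p (3401 ± 301 CPM) and miR-872-5p (3494 ± 107 CPM), and those just below were let-7b-5p (3343 ± 284 CPM) and miR-191-5p (3328 ± 309 CPM). miR-204-5p was higher than all 4 in replicate 1 and lower than all 4 in replicate 2, so its place among them changed between the libraries. The same held for miR-204-3p and its neighbours miR-182-3p (302 ± 33.7 CPM), miR-760-3p (313 ± 16.3 CPM), miR-185-5p (295 ± 25.0 CPM) and miR-351-5p (295 ± 20.0 CPM), with log2 ratios of 0.13 to 0.37 in replicate 1 and -0.36 to -0.19 in replicate 2. These neighbours were named for a similar mean CPM over 2 libraries and nothing else. A small mean log2 ratio to them follows from that choice.

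Against miRNAs of known cells, miR-204-5p was below most of the retinal neuron markers and above the leading markers of lens and vessels. Its count was below that of miR-96-5p, a miRNA of photoreceptors and other sensory cells (log2 ratio -0.82 ± 0.045), of miR-7a-5p, a miRNA of neurons and endocrine cells (-1.77 ± 0.39), and of miR-9-5p, the leading miRNA of neural progenitors (-6.08 ± 0.25). Among the neuronal markers it was above miR-124-3p, a miRNA of differentiated neurons, by 5.20-fold (log2 ratio 2.38 ± 0.074). It exceeded miR-184-3p of the lens and cornea by 4.20-fold (2.07 ± 0.41) and the endothelial miR-126a-3p by 3.73-fold (1.90 ± 0.094). All of these ratios kept their sign in both libraries, and ligation yield differs between sequences and is part of each.

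Among the markers listed for this tissue, all 6 of retinal neurons and progenitors were detected, with a summed level of 408867 CPM in replicate 1 and 432104 CPM in replicate 2. Of the 4 lens and cornea markers 3 were detected (863 and 993 CPM in replicates 1 and 2), and miR-205-5p, which defines surface epithelium, had 0 counts in both libraries. The 2 endothelial markers summed to 985 and 854 CPM and the 3 skeletal muscle markers to 88.7 and 92.0 CPM. The 3 blood markers summed to 62.1 and 63.6 CPM and the 2 pericyte markers to 58.5 and 65.2 CPM. The blood sum was almost all miR-486a-5p (512.5 counts in each library), with miR-451a at 3 counts in each and miR-144-3p at 2 and 1. The pericyte sum was almost all miR-143-3p (487 and 527 counts), with miR-145a-5p at 1 and 2. Of 4 leukocyte and microglia markers, miR-223-3p and miR-150-5p had 0 counts and the list summed to 2.16 and 2.22 CPM. No marker of the pigment epithelium other than the members themselves was in the lists, so the part of pigment epithelium or lens RNA in the miR-204 level was not tested.

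In the counts as listed, both hairpins had mainly their 5p arm, but the most frequent read listed as miR-211-5p lies closer to the Mir204 hairpin. The miR-204 hairpin had 31547 counts of 5p and 2981 of 3p in replicate 1, and 24309 of 5p and 1976 of 3p in replicate 2, with counts rounded to whole numbers. The 5p share was 91.4% (exact 95% interval 91.1 to 91.7) in replicate 1 and 92.5% (92.2 to 92.8) in replicate 2. The mean log2 ratio of 5p over 3p was 3.51 ± 0.15 (SD, n = 2), an 11.4-fold excess, and the adjusted p of the exact binomial test was too small for the computation to hold.

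The miR-211 hairpin had 50 counts of 5p and 1 of 3p in replicate 1, and 43 of 5p and 1 of 3p in replicate 2. The ratio was 50 (counting interval 8.57 to 2014) in replicate 1 and 43 (7.32 to 1737) in replicate 2, and it passed the exact binomial test with adjusted p = 7.24e-14 in replicate 1 and 7.64e-12 in replicate 2. An arm preference of this kind was common, since 89.4% of the 312 hairpins tested were called and 46.2% were called with the 5p arm higher. The wide intervals of miR-211 include the ratio of miR-204, so the hairpins were not shown to differ in arm use. How many of the 5p counts of miR-211 came from Mir211 is not known.

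The 3p arm of miR-204 was less reduced than that of most hairpins favouring 5p. Among the 163 hairpins with a positive log2 ratio the median was 4.60, and 96 of them were more 5p-biased than miR-204. Ranked by the level of the lower arm, miR-204-3p was 12th of 312 hairpins, against a median lower arm of 1.12 CPM. The lower arm of miR-211 ranked 243rd.

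**Figure D3:**
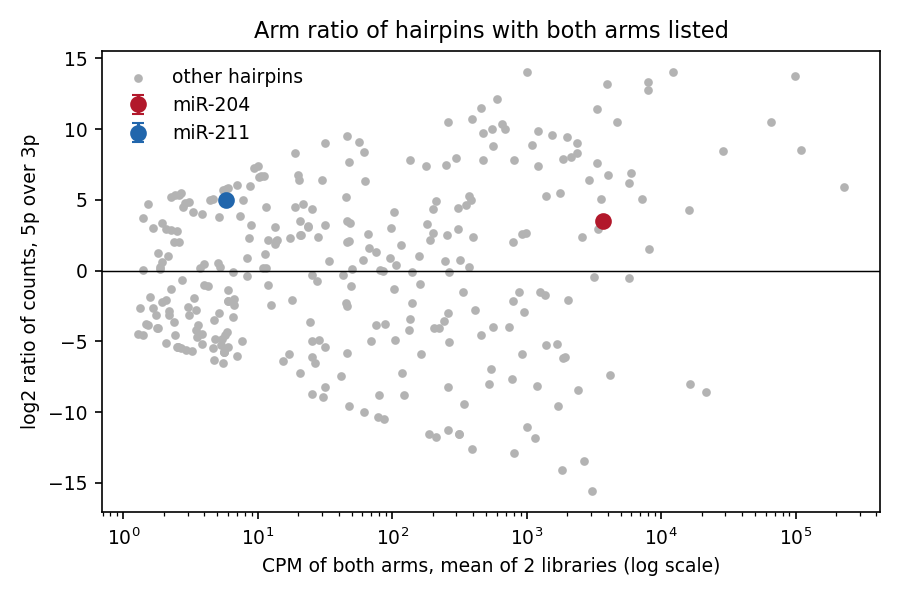
log2 ratio of 5p over 3p counts (mean of 2 libraries) against the CPM of both arms together (log axis) for 312 hairpins, with miR-204 and miR-211 coloured and SD as bars where larger than the point. Both lie above 0, at 3.51 and 4.97, within the range of the other hairpins that favour the 5p arm.

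miR-204-5p held almost all counts of the miRNAs with its seed. In the counts as listed, miR-204-5p exceeded miR-211-5p by a log2 ratio of 9.29 in replicate 1 and 9.13 in replicate 2. How many of the counts listed as miR-211-5p came from Mir211 is not known, so the ratio of the 2 miRNAs themselves is not known either. The mean was 9.21 ± 0.11 (SD, n = 2) or 591-fold, which was called in the exact binomial test with an adjusted p too small for the computation to hold. Among 226 pairs with a common seed and enough counts, 93.4% were called, so the call itself does not set this pair apart. The size was on the large side, with 31 pairs showing a larger ratio and a median log2 ratio of 3.99. Each pair was ordered with its more abundant miRNA first, which fixes the direction, and a miRNA can be in several pairs. The place among the pairs is therefore a description only. The UCCCUUU seed summed to 3395 CPM, rank 21 of 982 seeds.

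For the 3p arms miR-211-3p rested on 1 count per library. The ratio of miR-204-3p over miR-211-3p was 2981 in replicate 1, with a counting interval of 535 to 117782, and 1976 in replicate 2, with an interval of 354 to 78087. These intervals include the ratios of the 5p arms. The 3p seeds differ, so this pair was outside the test.

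The most frequent read of each member is shown because it tells which molecule was counted most often. The sequences are given as DNA, 5′ to 3′, with capitals for added 3′ bases and for bases that differ from the member's own mature sequence.
miR-204-5p, both libraries: ttccctttgtcatcctatgcctG
miR-204-3p, both libraries: gctgggaaggcaaagggacgt
miR-211-5p, both libraries: ttccctttgtcatcctGtgcctG
miR-211-3p, replicate 1: gcaaggacagcaaagggggg
miR-211-3p, replicate 2: gcaaggacagcaaaggggggcA
The most frequent reads of all 4 members started at the annotated 5′ base in both libraries, so the seeds of these reads were as listed. The starts of less frequent reads are not known. The miR-204-5p read was 1 base longer than the RefSeq entry, and the added G is the next base of the Mir204 hairpin. A 3′ addition that continues the hairpin was found in both libraries for 18 of 153 miRNAs at 100 CPM or more with a RefSeq hairpin (11.8%). The miR-204-3p read equalled its entry.

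The most frequent read counted as miR-211-5p did not have the sequence of miR-211-5p. It carried T17G relative to the miR-211-5p entry and A17G relative to the most frequent miR-204-5p read, so base 17 was that of neither miRNA, and its length equalled that of the miR-204-5p read. The added 3′ G was the next base of Mir204, whereas Mir211 has A there. Over its whole length the read had 1 mismatch to the Mir204 hairpin and 2 to the Mir211 hairpin, and this was so in both libraries. The miR-204-5p read had 0 mismatches to Mir204 and 2 to Mir211.

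A read that lies closer to another hairpin than to its own was rare. Among 731 miRNAs detected in both libraries with a RefSeq hairpin, 7 (0.958%) had it in both libraries, miR-211-5p among them, and among the 214 at 1 to 10 CPM there were 3 (1.4%). A substitution in the most frequent read was found in both libraries for 31 of the 731 (4.24%). In replicate 1 the counts of miR-204-5p and miR-211-5p both ended in 0.5, and in replicate 2 both were whole. The deposited table gives only the most frequent read, so how many of the 49.5 and 43 counts carried this sequence is not known. The counts of miR-211-5p equalled 0.157% and 0.177% of those of miR-204-5p in replicates 1 and 2.

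Other pairs that are a single base apart give a scale for this ratio. In 15 such pairs the higher miRNA reached 100 CPM, and the lower one stood at 0.0426% to 89.4% of it, with a median of 15.9%. miR-211-5p, at 0.166% of miR-204-5p on mean CPM, was second lowest, above let-7j at 0.0426% of let-7i-5p. In 12 of the 15 pairs the most frequent read of the lower miRNA carried its own base at the differing position in both libraries. The exceptions were miR-211-5p and let-7j, whose reads carried a base of neither miRNA, and miR-107-3p, whose read ended before that position. In 1 pair, that of miR-204-5p and miR-211-5p, the read was closer to the hairpin of the higher miRNA in both libraries.

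**Figure D4:**
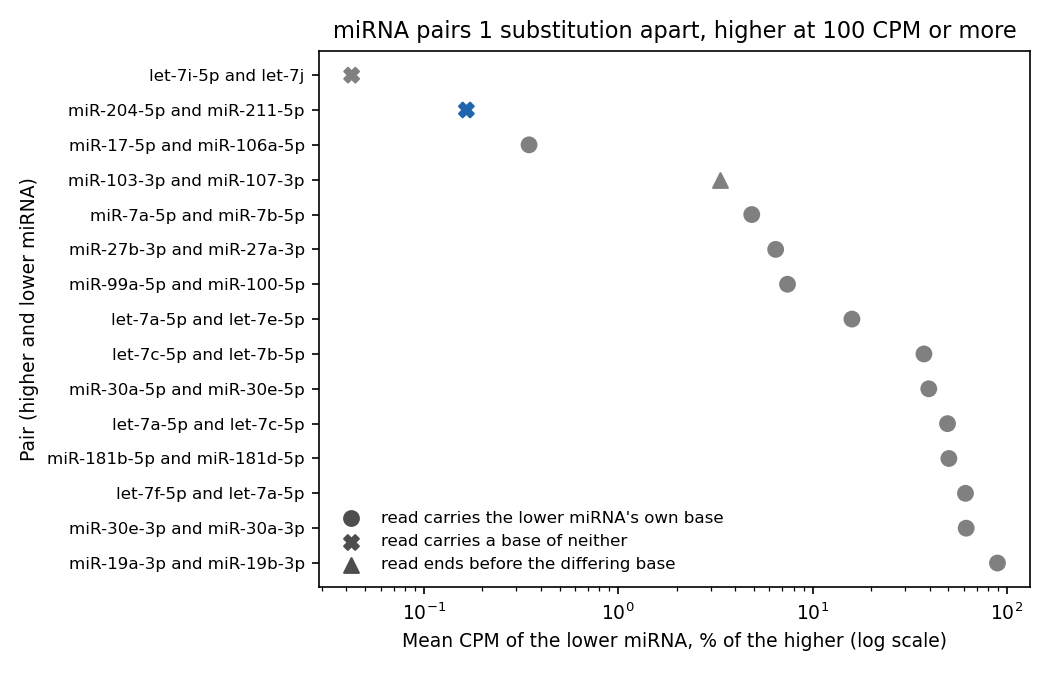
Mean CPM of the lower miRNA as a percentage of the higher (log axis) for the 15 pairs a single substitution apart in which the higher reached 100 CPM, with marker shape for the base that the most frequent read of the lower miRNA carried at the differing position. The pair of miR-204-5p and miR-211-5p (blue cross, 0.166%) is second lowest, and it and let-7j (0.0426%) are the crosses.

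Both arms of miR-204 were higher in replicate 1 than in replicate 2, the 3p arm by more. The log2 ratio of replicate 1 over replicate 2 was 0.34 for miR-204-5p (adjusted p = 6.3e-165) and 0.55 for miR-204-3p (adjusted p = 1.56e-39, exact binomial test scaled by table totals). For miR-211-5p it was 0.18 (adjusted p = 0.796, exact binomial test), and miR-211-3p had too few counts for the test. This test compares the libraries and not conditions. Of 710 miRNAs tested, 27.7% were called, with 139 (19.6%) higher in replicate 1 and 58 higher in replicate 2. At 100 CPM or more, 77.8% were called and 53.3% were called higher in replicate 1, so a call at the level of the miR-204 arms is no result about them. With TMM scaling 26.1% were called, 78 (11%) higher in replicate 1 and 107 higher in replicate 2. With DESeq2 size factors 26.3% were called, 88 (12.4%) higher in replicate 1 and 99 higher in replicate 2. Over the 710 the median log2 ratio was 0.12 with table totals and 0.0018 with TMM, a shift that moves every ratio alike. With TMM the log2 ratio was 0.22 for miR-204-5p and 0.43 for miR-204-3p, both called.

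The size of the difference in miR-204-3p stood near the end of the range. Among the 180 highest miRNAs, those at 100 CPM or more, 1 had a larger ratio of replicate 1 over replicate 2 than miR-204-3p, and 11 had a larger ratio than miR-204-5p. In either direction, 15 of the 180 had a larger absolute log2 ratio than miR-204-5p with table totals, 51 with TMM and 42 with DESeq2 size factors, and for miR-204-3p these numbers were 1, 5 and 3. The coefficient of variation of miR-204-3p was 26.9% with table totals and 21.1% with TMM. That of miR-204-5p was 16.5% with table totals and 10.6% with TMM. For comparison, edgeR, with TMM scaling, put the variation beyond counting error common to miRNAs with at least 10 counts at 0.104, as a coefficient of variation. In the same direction, the endothelial markers summed higher in replicate 1 (log2 ratio 0.21 with table totals, where the median of all tested miRNAs was 0.12). The lens and cornea sum went the other way (-0.20) through miR-184-3p (-0.24). Its other detected markers, miR-203-3p (0.013) and miR-31-5p (0.077), did not. The sums of the remaining lists had log2 ratios of -0.15 to -0.036. Within the list of retinal neurons and progenitors the markers were split. miR-96-5p (0.27) and miR-124-3p (0.23) were higher in replicate 1 by more than the endothelial sum, and the rest of that list had ratios of -0.21 to -0.015. A higher value in replicate 1 was thus not particular to the endothelial markers. The part of endothelium, lens or neurons in the difference between the libraries was not tested.

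The arm use of miR-204 also differed between the libraries, although its 5p share moved by little. The log2 ratio of 5p over 3p was 3.40 in replicate 1 and 3.62 in replicate 2, a difference of -0.22 (adjusted p = 1.41e-05, Fisher's exact test over 312 hairpins). This comparison does not depend on scaling, but its p covers counting error only. Of all 312 hairpins 8.65% passed it, and of the 196 with at least 100 counts in each library 14.8% passed. For miR-211 the difference was 0.22 (adjusted p = 1, Fisher's exact test), which its 1 count of 3p per library could not resolve.

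**Figure D5:**
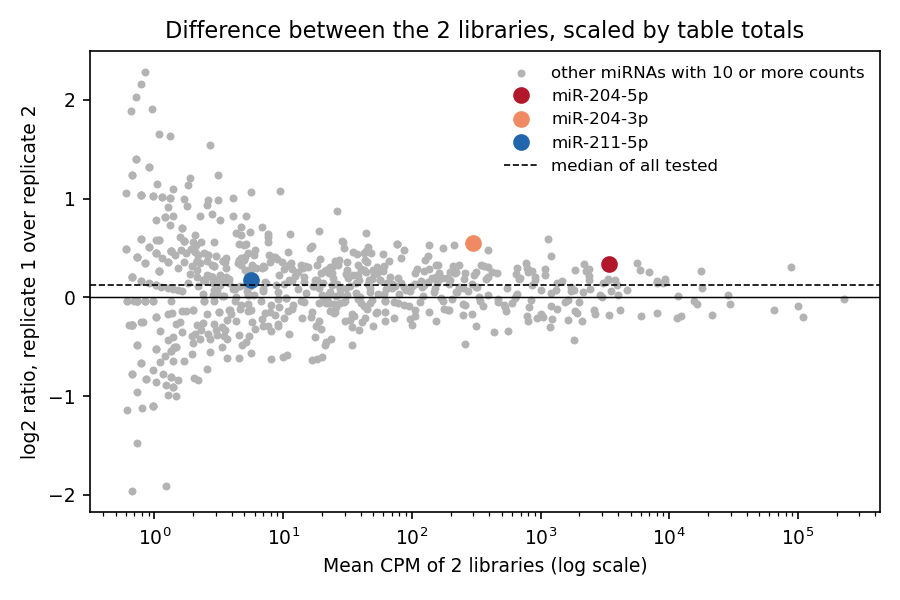
log2 ratio of replicate 1 over replicate 2 against mean CPM (log axis) for the 710 miRNAs with at least 10 counts, scaled by table totals, with the dashed line at their median of 0.12. miR-204-3p (0.55) and miR-204-5p (0.34) lie at the upper edge of the miRNAs of their level, and miR-211-5p (0.18) lies near the median.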

How the data were processed

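Total RNA of P0 retina was size-selected on gels for small RNA and made into libraries by adapter ligation, per the labels' protocols, which favours mature miRNAs and lets yield differ between sequences. Reads were written with bcl2fastq 2.17.1.14, per the submitters' processing notes. How reads were aligned and counted, and on which build, is not given in the sources used here. The deposited table of estimated counts held a value per miRNA and library, 6.77% and 5.96% of them not whole, and these were rounded for tests. The deposited CPM, scaled by the authors to totals larger than the table's, were replaced by CPM of the table total (1.13 times the deposited value). The deposited text table held the most frequent read of each miRNA, marked against miRBase per the file headers.

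The pseudocount was 0.5. Arms (hairpins with 10 or more counts in each library) and miRNAs with a common seed were tested for equal counts in each library (two-sided exact binomial test, Benjamini-Hochberg adjustment over the whole table). A call needed an adjusted p under 0.05 and the same direction in both libraries, with a mean log2 ratio of more than 2 SD. Between the libraries, each miRNA with 10 or more counts was tested in the same manner against the share expected from the totals. Reads were placed on RefSeq hairpins without gaps, counting bases past the hairpin's end as mismatches. Near pairs are mature sequences aligned at their first base that differ at 1 position. The named miRNAs are the members, the 2 neighbours on each side in mean CPM for members at 10 CPM or more, miRNAs sharing a seed or lying a single substitution from a member, and marker lists. miR-182-5p and miR-183-5p enter in the marker sums. The members and lists were chosen with earlier results of these data known. Fisher's exact test of arm share between libraries, and the counts over near pairs and hairpins, were chosen after seeing the data. The tests were checked on simulated counts with counting error only, so the check did not cover variation between libraries beyond it. Alternatives covered totals, pseudocount, rounding, count minimum, scaling and leaving out a replicate. Tools were Python 3.11.15, SciPy 1.17.1, statsmodels 0.14.6, R 4.3.3, edgeR 4.0.16 and DESeq2 1.42.0.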

Additional observations from a re-analysis of the deposited data

How the results depend on the processing

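Of 61 alternatives over 15 results, 59 kept the direction and side of the threshold of a tested result, a level within 1 SD, or a count within 1.5 times. The 2 others were levels by the total that the deposited CPM implies, 4.97 CPM for miR-211-5p and 0.108 CPM for miR-211-3p, where the larger total lowers every level alike. Without a replicate, the levels ranged from 2994 to 3784 CPM for miR-204-5p and from 243 to 358 CPM for miR-204-3p, and the log2 arm ratio of miR-204 from 3.40 to 3.62. For levels and called ratios, leaving out a replicate could not count as a change. Each of 2 values lies within 1 SD of their mean, and a call already needed both libraries. For miR-204-5p between the libraries the log2 ratio was 0.34 with the table totals, 0.22 under TMM and 0.24 under DESeq2 size factors, and for miR-204-3p it was 0.55, 0.43 and 0.45, all called. The log2 arm ratio of miR-211 was 4.57 with a pseudocount of 1, against 4.97 ± 0.15, a shift of more than 2 SD that did not change the call. miR-211 could not be fitted at 100 counts. No paired analysis was possible because there was a single group. Depth limits miR-211-3p, at 1 count per library, and leaves the arm ratio of miR-211 with a wide interval, and the source of the counts listed as miR-211-5p is uncertain at any depth.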
